A study of Mus musculus with 15 samples.

Results

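The genes described here are 9 genes of prostaglandin synthesis and breakdown, Pla2g4a, Ptgs1, Ptgs2, Ptges, Ptges2, Ptges3, Ptgis, Ptgds and Hpgd. They were chosen by name, as a list, out of 46603 gene identifiers in the count files, by a rule that uses no expression value. Prostaglandins are lipid signals made on demand from arachidonic acid. A cytosolic phospholipase A2 frees the fatty acid from membranes, the cyclooxygenases Ptgs1 and Ptgs2 turn it into prostaglandin H2, and terminal synthases turn that into prostaglandin E2, I2 or D2. In fat tissue, products of this pathway are known both to promote and to restrain the formation of adipocytes, depending on the product and the receptor it meets.

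RNA was sequenced from wild-type mouse embryonic fibroblasts (MEFs) of the BALB/c strain, prepared from embryos aged 10.5 days. MEFD0 was collected at day 0, before treatment. MEFD3plu and MEFD5plu are treated cells at day 3 and day 5, and MEFD3min and MEFD5min are untreated cells of the same days. Treated cells were kept for 3 days in growth medium with IBMX (3-isobutyl-1-methylxanthine, an inhibitor of phosphodiesterases) at 0.5 mM, insulin at 10 µg/mL, the glucocorticoid dexamethasone at 1 µM and the Pparg agonist rosiglitazone at 10 µM, and then in growth medium alone until day 5, so that MEFD5plu was sampled after the additions had been withdrawn. Each of the 5 conditions had 3 samples, numbered 1, 3 and 4. The labels do not say whether the samples of a condition came from separate cultures or embryos, so the p-values measure the spread between these samples, which may be technical. MEFs are a mixed primary population and not a single clone.

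Each sample held 24030558 to 37281126 counts. Levels are given as CPM, counts relative to the library size, scaled by edgeR's TMM method, as mean ± SD of n = 3 samples, and levels of different genes are compared only as CPM per kb of exon. The floor of detection, taken as 3 counts, lay between 0.0805 and 0.125 CPM and covers counting error only. Each fold change is treated over untreated, or later over earlier, on the log2 scale with its standard error (SE), and each adjusted p comes from the quasi-likelihood test of edgeR, adjusted by Benjamini-Hochberg over the 15997 genes tested. The 10 fibroblast markers examined were detected in all 5 conditions, with a summed level of 10543 to 36326 CPM per sample. The sum was 25011 to 36326 CPM in MEFD3min and 12187 to 13510 CPM in MEFD3plu. In treated cells, 8 were lower and 1 higher at day 3, beside 28.0% and 28.0% of all genes tested. At day 5, 3 were lower and 2 higher, beside 24.2% and 26.3%. The 10 adipocyte markers summed to 7747 to 9434 CPM in MEFD3plu and 9871 to 11616 CPM in MEFD5plu, against 45.9 to 80.4 CPM in the untreated samples and MEFD0, and 10 of 10 were higher in treated cells on both days. In such bulk samples, fewer cells of a type and less RNA per cell cannot be told apart. Of 12 macrophage markers, Adgre1, C1qa, C1qb and C1qc were at 0 in every sample, and the summed level was 7.49 to 9.31 CPM in MEFD3plu and 19.3 to 20.5 CPM in MEFD5min, its extremes. The endothelial list summed to 1.31 to 19.1 CPM, with Cldn5 at 0 in every sample. It was mostly Emcn outside MEFD0, where Emcn measured 0.0274 CPM and Cdh5 0.840 CPM. The part of these changes in cell markers in the results that follow was not tested.

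Of the 9 genes, 7 passed the filter on low counts, and Ptgds and Hpgd did not. Ptgis passed it only through the MEFD5min samples, where it was highest. The filter thus tilted its comparisons with MEFD5min towards a difference, and counts are also given without it. Between MEFD3plu and MEFD3min, 2 of the 7 genes rose (Ptges and Ptges2), 2 fell (Pla2g4a and Ptgs1) and 3 did not pass. Of all genes tested, 28.0% were higher and 28.0% were lower in that comparison. Between MEFD5plu and MEFD5min, 1 rose (Ptges2), 4 fell (Pla2g4a, Ptgs2, Ptges3 and Ptgis) and 2 did not pass, where 26.3% of all genes were higher and 24.2% were lower. Without Ptgis, 3 of 6 fell. With libraries scaled by their totals alone, the day 5 calls were 37.0% higher genes in place of 52.1%. The median log2 fold change of the 7 genes was 0.05 at day 3 and -0.36 at day 5 (0.14 and -0.34 without Ptgis), beside -0.00057 and 0.010 over all genes tested. With only 7 genes these counts are a description, and the genes are taken one by one in the order of their roles.

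**Figure D1:**
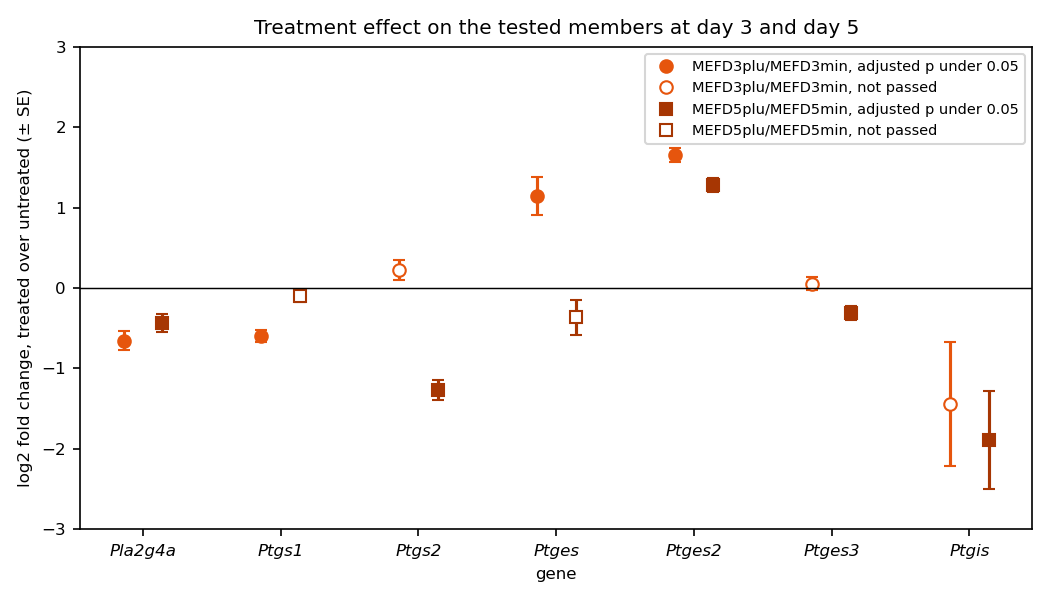
Log2 fold change of treated over untreated cells (vertical axis, ± SE) for the 7 tested genes, at day 3 (circles) and day 5 (squares), filled where the adjusted p was under 0.05. Ptges2 lay above 0 on both days at 1.66 and 1.28, Ptgs2 lay at 0.22 on day 3 and -1.27 on day 5, and Ptges lay at 1.14 and -0.36.

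Pla2g4a encodes the cytosolic phospholipase A2 that releases arachidonic acid (GRCm38 chr1:149829618-149961290, minus strand). Its level was 96.9, 93.4 and 98.7 CPM in MEFD0, 61.8, 51.7 and 78.3 CPM in MEFD3min and 40.5, 36.5 and 44.6 CPM in MEFD3plu. It was 128, 121 and 136 CPM in MEFD5min and 90.7, 95.4 and 98.9 CPM in MEFD5plu. Treated samples lay below all untreated samples of the same day, at day 3 and at day 5. The log2 fold change was -0.66 (SE 0.117, adjusted p = 0.000137) at day 3 and -0.44 (SE 0.115, adjusted p = 0.00464) at day 5, and the difference between both was -0.22 (95% interval -0.57 to 0.13, adjusted p = 0.285). Untreated cells fell by 0.59 from day 0 to day 3 (adjusted p = 0.000296) and rose by 1.01 from day 3 to day 5 (adjusted p = 2.46e-06), and treated cells rose by 1.23 between those days (adjusted p = 1.42e-07). MEFD5plu and MEFD0 overlapped, at -0.02 (adjusted p = 0.89). MEFD5min lay above MEFD0 by 0.42 (adjusted p = 0.00701), a call lost without MEFD5min replicate 4 (0.34, adjusted p = 0.0535).

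Ptgs1 encodes cyclooxygenase 1, regarded as the housekeeping form (chr2:36230426-36252272, plus strand). Its level was 128, 143 and 127 CPM in MEFD0, 123, 144 and 130 CPM in MEFD3min and 89.9, 87.6 and 85.5 CPM in MEFD3plu. At day 5 it was 128, 123 and 122 CPM in untreated cells and 116, 118 and 115 CPM in treated cells. MEFD3plu stood below every other condition, and the 3 groups without treatment overlapped with each other. The gene fell by 0.60 at day 3 (SE 0.0749, adjusted p = 3.01e-06). At day 5 the log2 fold change was -0.09 (95% interval -0.25 to 0.06, adjusted p = 0.319), although the samples did not overlap, and -0.26 (adjusted p = 0.0108) with libraries scaled by their totals alone. The difference between the days was -0.50 (SE 0.106, adjusted p = 0.000849), and treated cells rose by 0.41 from day 3 to day 5 (adjusted p = 0.000152). MEFD5plu lay below MEFD0 (-0.19, adjusted p = 0.0343) and below MEFD3min (-0.19, adjusted p = 0.0418). Of the exon bases of Ptgs1, 3.81% overlap Gm43621 on the other strand, and the strand setting of the counting is not given in the sources used here.

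Ptgs2 encodes cyclooxygenase 2, the inducible form, an immediate-early gene that growth factors and cytokines raise and glucocorticoids are known to lower (chr1:150100031-150108227, plus strand). Its level was 74.7, 106 and 85.4 CPM in MEFD0, 39.1, 30.9 and 39.0 CPM in MEFD3min and 47.6, 38.5 and 41.2 CPM in MEFD3plu. It reached 188, 222 and 223 CPM in MEFD5min, its highest values, and was 81.6, 86.1 and 94.6 CPM in MEFD5plu. The day 3 groups overlapped, and all treated samples of day 5 lay below all untreated ones. At day 3 the log2 fold change was 0.22 (SE 0.129, 95% interval -0.05 to 0.50, adjusted p = 0.150). Samples of the same number deviated together at day 3, and with the number as a block in a fit of the day 3 samples the value was 0.22 with adjusted p = 0.0304. At day 5 the gene fell by 1.27 (SE 0.127, adjusted p = 3.86e-07), a level 2.41-fold lower in treated cells. The difference between the days was 1.50 (SE 0.180, adjusted p = 3.80e-06).

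Ptgs2 also changed in untreated culture. It fell by 1.29 from MEFD0 to MEFD3min (SE 0.129, adjusted p = 1.70e-07) and rose 5.82-fold from MEFD3min to MEFD5min (log2 2.54, SE 0.133, adjusted p = 1.87e-10), to 1.25 above MEFD0 (adjusted p = 4.73e-07). In treated cells it rose by 1.04 from day 3 to day 5 (adjusted p = 2.41e-06). MEFD5plu and MEFD0 overlapped, at a log2 difference of -0.02 (adjusted p = 0.905). The treated samples of day 5 thus lay at the level of day 0, and the untreated samples of that day lay above it.

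**Figure D2:**
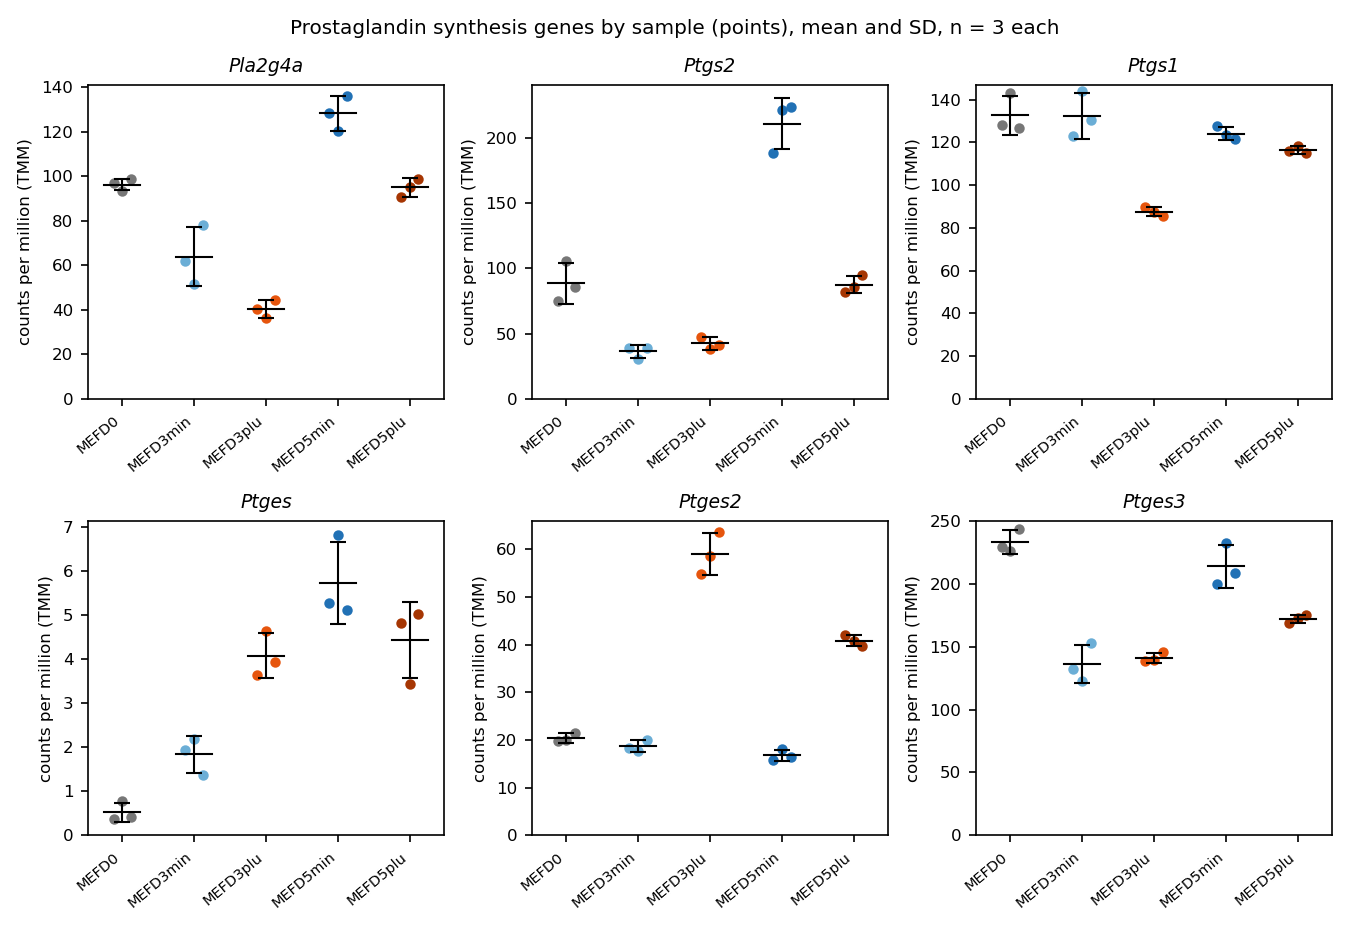
Level (CPM, vertical axis from 0) of 6 genes in each of the 15 samples (points) of the 5 conditions, with the mean and SD of n = 3 (black). Ptgs2 stood at 188 to 223 CPM in MEFD5min and at 30.9 to 106 CPM elsewhere, and Ptges2 stood at 39.7 to 63.6 CPM in the 6 treated samples and at 15.9 to 21.6 CPM in the other 9.

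Per kb of exon, Ptgs1 exceeded Ptgs2 in 12 of 15 samples, and the order was turned around in MEFD5min. The ratio of Ptgs2 to Ptgs1 within a sample was 0.564 ± 0.0650 in MEFD0, 0.235 ± 0.0469 in MEFD3min, 0.410 ± 0.0383 in MEFD3plu and 0.637 ± 0.0526 in MEFD5plu (SD, n = 3). In MEFD5min it was 1.44 ± 0.168 and ranged from 1.25 to 1.56, so that the 3 samples in which the inducible form was the more abundant were untreated. No test was run on this ratio.

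Pla2g4a and Ptgs2, the first enzymes of the pathway, are neighbours on chromosome 1. The gap between them is 138740 bases and holds 3 annotated genes, none of them protein-coding: Gm19136 and Gm44329 had 0 counts in all samples, and Ptgs2os, a noncoding gene on the other strand whose start lies 67 bases from that of Ptgs2, was detected. Ptgs2os was singled out for its position after its values were seen. It measured 3.33, 2.54 and 2.40 CPM in MEFD0, 0.533, 0.870 and 1.01 CPM in MEFD3min and 0.341, 0.219 and 0.423 CPM in MEFD3plu. At day 5 it measured 3.30, 2.38 and 2.32 CPM in untreated cells and 1.40, 1.61 and 1.36 CPM in treated cells. It fell at day 3 (log2 -1.27, SE 0.339, adjusted p = 0.00404). At day 5 it fell by 0.87 (adjusted p = 0.00929), a call lost without MEFD5min replicate 1 (-0.69, adjusted p = 0.0598). Over the 15 samples, Pearson's r of log2 CPM between Pla2g4a and Ptgs2 was 0.859, and 0.389 after the mean of each condition was removed. A high r was not particular to the neighbours. Ptges3, on chromosome 10, had r = 0.802 with Pla2g4a and 0.801 with Ptgs2, and 0.656 and 0.361 after the means were removed. The 15 points share 5 conditions and their libraries, so these r are descriptions.

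The 250 bases before the start of 4 genes, from RefSeq promoter sequences in GRCm38.p6, are shown because their courses differed. The 2 neighbours both fell to day 3 and rose to day 5 in untreated cells. Ptges2 rose with treatment, and Ptgs1 had no call between the 3 groups without treatment. Of the 9 genes, 8 had an entry. Capitals mark matches, on either strand, to GGGCGG (a GC box), TTNNGNAA (a loose C/EBP-type motif) or CACGTG (an E-box). Overlapping matches run together. The letters TATAAA of the usual core promoter box and TGACG, the core of the cAMP response element, were also searched. They had no match in these windows. Bases after the listed start were not searched, so a match there would be missed.
Ptgs2, chr1:150099781-150100030, plus strand: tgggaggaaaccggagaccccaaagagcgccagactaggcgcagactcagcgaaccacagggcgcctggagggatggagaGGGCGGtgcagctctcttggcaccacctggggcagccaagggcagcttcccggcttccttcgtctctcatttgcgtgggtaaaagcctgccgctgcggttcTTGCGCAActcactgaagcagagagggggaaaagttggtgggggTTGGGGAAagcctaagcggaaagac
Pla2g4a, chr1:149961291-149961540, minus strand: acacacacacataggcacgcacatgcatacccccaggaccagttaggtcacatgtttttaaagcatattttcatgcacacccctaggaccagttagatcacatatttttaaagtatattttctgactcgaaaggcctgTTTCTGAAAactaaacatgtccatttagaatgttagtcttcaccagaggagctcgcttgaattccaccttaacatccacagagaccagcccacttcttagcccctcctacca
Ptges2, chr2:32395640-32395889, plus strand: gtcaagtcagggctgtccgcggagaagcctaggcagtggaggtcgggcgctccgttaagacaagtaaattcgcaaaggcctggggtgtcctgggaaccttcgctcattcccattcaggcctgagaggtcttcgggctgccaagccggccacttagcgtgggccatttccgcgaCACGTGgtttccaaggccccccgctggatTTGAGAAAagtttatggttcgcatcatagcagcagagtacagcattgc
Ptgs1, chr2:36230176-36230425, plus strand: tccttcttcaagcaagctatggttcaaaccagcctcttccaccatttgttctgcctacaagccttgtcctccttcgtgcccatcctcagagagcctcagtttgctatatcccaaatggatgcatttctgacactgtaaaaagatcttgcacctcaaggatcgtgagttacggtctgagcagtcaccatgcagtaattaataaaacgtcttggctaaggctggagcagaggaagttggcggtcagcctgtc

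The Ptgs2 window held TTGCGCAA at 69 to 62 bases and TTGGGGAA at 25 to 18 bases before the start, beside a GC box at 170 to 165 bases. The Pla2g4a window held 2 overlapping matches to the C/EBP letters, 112 to 104 bases before the start. RefSeq lists another start of Pla2g4a, not printed here, whose window (chr1:149922440-149922689) held 1 match to TATAAA and none to the other 4 motifs. The Ptges2 window held the E-box at 77 to 72 bases and TTGAGAAA at 48 to 41 bases before the start. None of the 5 motifs was found for Ptgs1. Ptges3 also fell to day 3 and rose to day 5 in untreated cells. Its window, not printed here, held 3 matches to the GC box and none to the other 4 motifs. The windows of Ptges, Ptgds and Hpgd, also not printed, each held 1 match to the C/EBP letters. Those of Ptges and Hpgd also held 2 and 1 matches to the GC box, and no other motif was matched in these windows. Windows of the same length hold the C/EBP letters in 36.8%, the GC box in 32.7%, TGACG in 17.8%, TATAAA in 12.4% and the E-box in 6.02% of 32851 RefSeq promoters. A match is a description of letters and not a binding site.

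Ptges encodes the microsomal prostaglandin E synthase 1, the inducible form that is often coupled to Ptgs2 (chr2:30889471-30929863, minus strand). It was the least abundant of the 3 prostaglandin E synthases, with 11, 29 and 15 counts in the MEFD0 samples. Its level was 0.377, 0.769 and 0.419 CPM in MEFD0, 1.94, 2.19 and 1.38 CPM in MEFD3min and 3.65, 4.64 and 3.95 CPM in MEFD3plu. It was 5.28, 6.81 and 5.11 CPM in MEFD5min and 4.83, 3.45 and 5.04 CPM in MEFD5plu. It rose at day 3 (log2 1.14, SE 0.236, adjusted p = 0.000521), with no overlap of the groups. At day 5 the value was -0.36 (95% interval -0.82 to 0.10, adjusted p = 0.178). The difference between the days was 1.51 (SE 0.321, adjusted p = 0.000951). In untreated culture the gene rose by 1.79 to day 3 (adjusted p = 4.34e-05) and by a further 1.63 to day 5 (adjusted p = 2.57e-05), 10.7-fold over MEFD0 in all. MEFD3plu and MEFD5plu overlapped (0.12, adjusted p = 0.648).

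Ptges2 encodes the membrane-associated prostaglandin E synthase 2 (chr2:32395896-32405772, plus strand), and it was the gene of the list with the largest treatment effect at day 3 among those that passed. Its level was 19.8, 19.9 and 21.6 CPM in MEFD0, 18.4, 17.6 and 20.1 CPM in MEFD3min and 15.9, 18.1 and 16.4 CPM in MEFD5min. In treated cells it was 54.9, 58.6 and 63.6 CPM at day 3 and 42.0, 40.7 and 39.7 CPM at day 5. All 6 treated samples lay above the 9 others. The gene rose 3.16-fold at day 3 (log2 1.66, SE 0.0864, adjusted p = 3.98e-11) and 2.44-fold at day 5 (log2 1.28, SE 0.0865, adjusted p = 3.03e-09). Treated cells fell by 0.53 between those days (adjusted p = 3.21e-05), and the treatment effect was larger at day 3 by 0.37 (SE 0.120, adjusted p = 0.0164), a call lost without the filter on low counts (0.36, adjusted p = 0.0984). MEFD5min lay below MEFD0 by a small amount (-0.29, adjusted p = 0.0122), which was lost without MEFD0 replicate 4 or MEFD5min replicate 1 (-0.25 each, adjusted p = 0.0559 to 0.0601).

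Ptges3 encodes the cytosolic prostaglandin E synthase, better known as p23, a co-chaperone of Hsp90 (chr10:128058954-128077272, plus strand). Its level was 230, 226 and 244 CPM in MEFD0, 132, 123 and 153 CPM in MEFD3min and 138, 140 and 145 CPM in MEFD3plu. It was 200, 233 and 209 CPM in MEFD5min and 169, 173 and 175 CPM in MEFD5plu. The day 3 groups overlapped (0.05, SE 0.0839, adjusted p = 0.611), and the gene fell at day 5 (-0.31, SE 0.0837, adjusted p = 0.00509). The difference between the days was 0.37 (adjusted p = 0.0171), a call lost without MEFD5min replicate 3 or without the filter (0.30 and 0.35, adjusted p = 0.0501 to 0.0568). As with Pla2g4a and Ptgs2, untreated cells fell to day 3 (-0.78, adjusted p = 4.35e-07) and rose to day 5 (0.65, adjusted p = 8.18e-06). Of its stretches of 50 bases, 19.6% also occur in other genes, almost all in the pseudogene Ptges3-ps, so its counts are uncertain by what the counting did with shared reads. Ptges3-ps measured 0.439 to 1.49 CPM per sample.

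**Figure D3:**
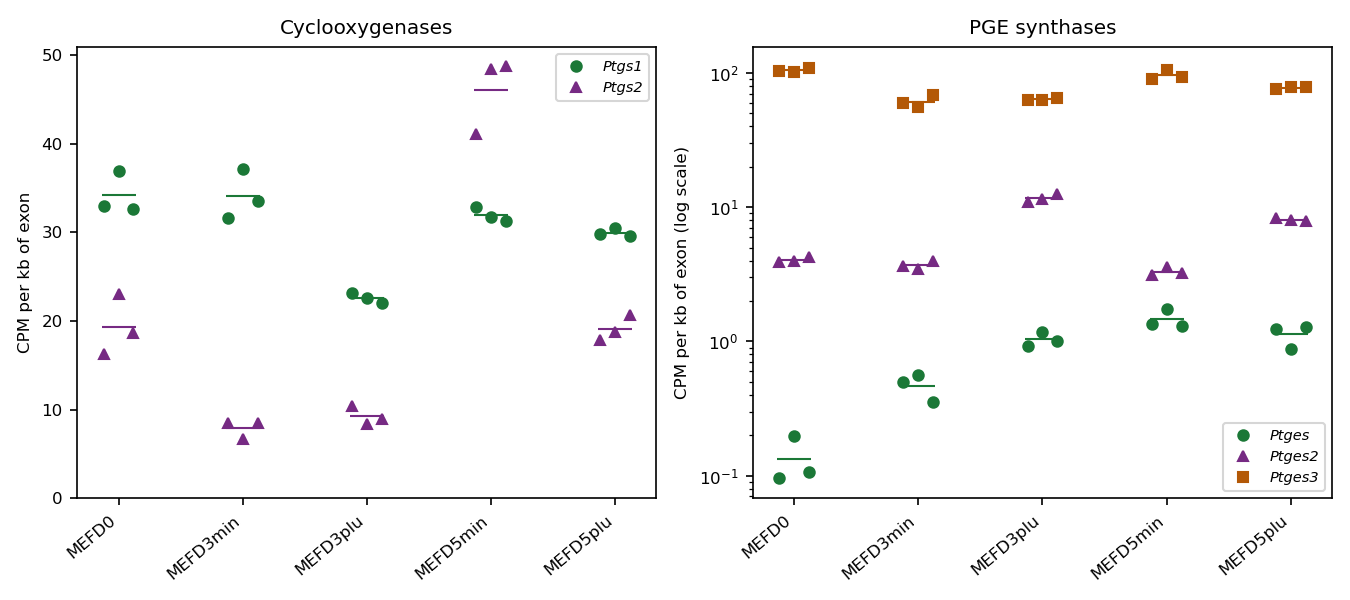
Level per kb of exon (CPM per kb) of the cyclooxygenases (left, linear axis) and the prostaglandin E synthases (right, log axis) in each of the 15 samples, with dashes at the means. Ptgs2 passed Ptgs1 in the 3 MEFD5min samples, and Ptges3 stayed above Ptges2 and Ptges in every sample.

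Per kb of exon, Ptges3 made up 96.2% of the summed level of the 3 prostaglandin E synthases in MEFD0, 93.6% and 95.3% in untreated cells of day 3 and day 5, and 83.4% and 89.4% in treated cells of those days. The share of Ptges2 was 3.69% in MEFD0, 5.65% and 3.27% in untreated cells, and 15.3% and 9.29% in treated cells. That of Ptges was 0.122% in MEFD0 and 0.730% to 1.44% in the other conditions. The order Ptges3, Ptges2, Ptges held in all 15 samples.

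Ptgis, the prostacyclin synthase, was near the floor (chr2:167191805-167240604, minus strand). It had 0, 0 and 1 counts in MEFD0, 10, 3 and 4 in MEFD3min, 1, 4 and 1 in MEFD3plu, 20, 10 and 16 in MEFD5min and 7, 1 and 4 in MEFD5plu. Scaled for library size, the MEFD5min samples lay at 0.389 to 0.559 CPM, above every other sample, of which MEFD3min replicate 1 was the highest at 0.313 CPM. The value at day 5 was -1.89 (SE 0.606, adjusted p = 0.0154), in a comparison with the only condition through which the gene passed the filter on low counts. That call was lost without MEFD5min replicate 1, MEFD5plu replicate 3 or MEFD5plu replicate 4 (-1.47 to -1.88, adjusted p = 0.0510 to 0.0810), and the value was -2.52 without MEFD5plu replicate 1. At day 3 the value was -1.45 (95% interval -3.07 to 0.18, adjusted p = 0.122). Against the single count of MEFD0, MEFD5min was 48.0-fold higher (95% counting interval 8.19 to 1935), a ratio that rests on MEFD0 replicate 4 for its 1 count. Of its exon bases, 6.08% overlap 1110018N20Rik on the other strand.

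Ptgds, the lipocalin-type prostaglandin D synthase (chr2:25466709-25470046), and Hpgd, the 15-hydroxyprostaglandin dehydrogenase that starts the breakdown of prostaglandins (chr8:56294585-56321043), were at or near 0. Ptgds had at most 5 counts in a sample: 5, 5 and 0 in MEFD5plu, 0, 0 and 4 in MEFD3min, and 0 or 1 elsewhere. Hpgd had 1 count, in MEFD5plu replicate 4, and 0 in the other 14 samples, at a floor of 0.0805 to 0.125 CPM. Neither gene was tested, and no difference was detectable at this depth. RNA of Hpgd was thus not detected above the floor in any condition.

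The courses over time fell into a few shapes. From MEFD0 to MEFD3min, 2 of the 7 genes were called higher (Ptges and Ptgis) and 3 fell (Pla2g4a, Ptgs2 and Ptges3), beside 31.4% higher and 28.6% lower of all genes. From MEFD3min to MEFD5min, 4 rose (Pla2g4a, Ptgs2, Ptges and Ptges3) and 0 fell, beside 21.3% higher and 21.5% lower of all genes tested. At an unadjusted p under 0.05 the count of falling genes was also 0, by edgeR and by DESeq2. With libraries scaled by their totals alone, 62.7% of all calls in that comparison were of higher genes in place of 49.7%. From MEFD0 to MEFD5min, 3 of the 6 other genes rose (Pla2g4a, Ptgs2 and Ptges) and Ptges2 fell, beside 24.5% and 21.9%, and Ptgis, which was tested only because of its MEFD5min counts, was called higher. In treated cells from day 3 to day 5, 4 rose (Pla2g4a, Ptgs1, Ptgs2 and Ptges3) and Ptges2 fell, beside 33.8% and 29.2%. These comparisons share samples and are not independent of one another.

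In a test of the day 3 effect against the day 5 effect, 5 of the 7 genes passed. The log2 fold change of day 3 minus that of day 5 was above 0 for Ptgs2, Ptges, Ptges2 and Ptges3 and below 0 for Ptgs1, beside 22.6% of all genes above and 25.8% below. This difference is signed and does not give on which day the effect was the larger in size. With libraries scaled by their totals alone, 59.5% of the calls over all genes were above 0 in place of 46.7%, and the 5 genes kept their direction.

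Of the 28 pairs of conditions that neighbour each other in the order of a gene's levels, 12 differed and 16 did not pass. For Ptgs2 the order was MEFD5min, MEFD0, MEFD5plu, MEFD3plu, MEFD3min, with no call between MEFD0 and MEFD5plu or between the day 3 groups. Pla2g4a had the same first 3 conditions, and there MEFD5plu lay above MEFD3min (0.57, adjusted p = 0.000526) and MEFD3min above MEFD3plu. For Ptges2 the order was MEFD3plu, MEFD5plu, MEFD0, MEFD3min, MEFD5min, with calls at the first and second steps, the second at 1.00 between MEFD5plu and MEFD0 (adjusted p = 2.21e-08). For Ptgis none of the 4 steps passed. The steps that are not among the comparisons above are read against 63.5% of all genes called in either direction between MEFD3plu and MEFD0, 65.0% between MEFD5plu and MEFD0 and 56.7% between MEFD5plu and MEFD3min.

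Beyond these 9 genes, 61 genes of the wider pathway were listed, of which 58 had a count and 43 were tested. At day 3, 19 were higher in treated cells, 12 were lower and 12 did not pass, beside 28.0% of all genes higher and 28.0% lower. At day 5 the counts were 24, 5 and 14, beside 26.3% and 24.2%, and with libraries scaled by their totals alone 20 were higher and 7 lower. Of these genes, 3 passed the filter on low counts only through 1 condition (Pla2g2e through MEFD5plu, Tbxas1 through MEFD5min and Akr1c18 through MEFD0), and without them 18 were higher and 11 lower of 40 at day 3 and 23 and 4 at day 5. The median log2 fold change of the 43 genes was 0.24 at day 3 and 0.50 at day 5, beside -0.00057 and 0.010 over all genes. Genes of an empty untreated group, 2 at day 3 and 1 at day 5, have only a lower bound. These bounds also lay above the median, so putting the genes there could not move it.

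Among 11 tested genes of arachidonate release, 6 rose and 0 fell at day 3, beside 28.0% and 28.0% of all genes, and 8 rose and 1 fell at day 5, beside 26.3% and 24.2%. With libraries scaled by their totals alone, 5 rose and 2 fell at day 5. These counts include Pla2g2e, which passed the filter on low counts only through MEFD5plu. Without it, 5 of 10 rose and 0 fell at day 3, and 7 rose and 1 fell at day 5. With the totals alone, 4 of these 10 rose and 2 fell at day 5. By edgeR and DESeq2 at an unadjusted p under 0.05, the number that fell at day 3 was also 0. Mgll, the monoacylglycerol lipase, had 0 counts in MEFD0 and MEFD3min and 251, 302 and 382 counts in MEFD3plu, at least 103-fold higher. It had 1 count in all of MEFD5min, in replicate 3, and 858, 655 and 819 counts in MEFD5plu, a ratio of 2349 (95% counting interval 421 to 92817). Pla2g12a, a secreted phospholipase A2, rose by 2.14 at day 3 (SE 0.129, adjusted p = 2.78e-10) and 0.73 at day 5, and the calcium-independent Pla2g6 rose by 1.26 and 0.50, the latter lost without MEFD5min replicate 4 (0.42, adjusted p = 0.0537) and with libraries scaled by their totals alone (0.34, adjusted p = 0.0980). Pla2g4a itself fell on both days, as given above. Dagla, a diacylglycerol lipase, fell by 1.01 at day 5 (adjusted p = 0.000469). At day 3 it was 0.48 higher with overlapping groups (adjusted p = 0.0466), a call lost without MEFD3min replicate 1 or 4 or MEFD3plu replicate 1 or 3 (0.31 to 0.53). It was also lost by edgeR with library totals alone (adjusted p = 0.0546), with at least 10 counts in every sample (adjusted p = 0.0518) and with only the samples compared (adjusted p = 0.0816). Pla2g2e had 2 counts in MEFD3min and 19 in MEFD3plu, and 0 in MEFD5min and 90 in MEFD5plu, there at least 9.82-fold higher, and was tested only because of its MEFD5plu counts. Pla2g4c was 1.02 higher at day 5 (adjusted p = 0.0292), a call lost without any 1 of 4 samples (MEFD5min replicates 1 and 4, MEFD5plu replicates 1 and 4, 0.69 to 1.02), with libraries scaled by their totals alone (0.85, adjusted p = 0.0682) and without the filter (1.02, adjusted p = 0.0654).

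Among 8 tested genes of other terminal synthases, 2 rose and 2 fell at day 3, near the 28.0% and 28.0% of all genes. At day 5, 4 rose and 1 fell, beside 26.3% and 24.2%. These counts include Tbxas1 and Akr1c18, which passed the filter on low counts only through 1 condition. Without them, 2 of 6 rose and 1 fell at day 3, and 4 rose and 0 fell at day 5. Akr1b3, an aldo-keto reductase that can make prostaglandin F2alpha, rose by 0.75 at day 3 (adjusted p = 1.44e-05) and 0.93 at day 5 (adjusted p = 1.87e-06). Its relative Akr1b7 had 1 count in MEFD3min and 124 in MEFD3plu, a ratio of 125 (95% counting interval 22.0 to 4966). Akr1b8 fell by 0.94 at day 3 (adjusted p = 9.23e-07) and was 0.27 higher at day 5 (adjusted p = 0.0445). The day 5 call was lost with libraries scaled by their totals alone (0.10, adjusted p = 0.390), with the size factors of DESeq2 in edgeR (0.22, adjusted p = 0.0997), by DESeq2 (0.22, adjusted p = 0.126) and without any 1 of MEFD5min replicates 1, 3 and 4 and MEFD5plu replicates 3 and 4 (0.22 to 0.27). Hpgds, the hematopoietic prostaglandin D synthase, measured 0.139 CPM in MEFD5min and 0.952 CPM in MEFD5plu and rose there by 2.79 (adjusted p = 0.000317). Among 10 mast cell markers, some were higher in the same samples, with Cma1 at 0.00931 CPM in MEFD5min and 0.734 CPM in MEFD5plu, Cpa3 at 0.0180 and 0.340 CPM and Hdc at 0.135 and 0.507 CPM. The list summed to 17.0 to 19.4 CPM in MEFD5min and 12.5 to 13.7 CPM in MEFD5plu, mostly Gata2, and Tpsb2 and Tpsab1 were at 0 in every sample. Of its 3 tested markers, 1 was higher and 1 lower, and the part of these markers in the Hpgds result was not tested. The thromboxane synthase Tbxas1, tested only because of its MEFD5min counts, was called lower on both days (adjusted p = 0.00226 and 0.00601). It had 27 counts in MEFD3min and 2 in MEFD3plu, 13.4-fold lower (95% counting interval 3.37 to 116), and its log2 fold change at day 5 was -1.90.

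Among 6 tested genes of breakdown and transport, 4 rose and 1 fell at day 3, beside 28.0% and 28.0% of all genes, and 2 rose and 0 fell at day 5, beside 26.3% and 24.2%. The number that fell at day 5 was also 0 at an unadjusted p under 0.05, by edgeR and by DESeq2. Abcc4, an exporter of prostaglandins, measured 36.8, 41.5 and 35.9 CPM in MEFD3plu against 4.17, 6.18 and 3.80 CPM in MEFD3min, a rise of 3.00 (SE 0.213, adjusted p = 2.36e-09). At day 5 its value was -0.30 (adjusted p = 0.272). Slco2a1, the uptake carrier, rose by 2.68 at day 3 (SE 0.267, adjusted p = 1.83e-07) and 0.75 at day 5 (adjusted p = 0.0101), the latter lost without MEFD5min replicate 4 (0.48, adjusted p = 0.0779). It stood highest in MEFD0, at 15.6, 21.4 and 13.7 CPM. Ptgr2, a prostaglandin reductase of later steps of breakdown, rose by 1.12 and 1.56 (adjusted p = 3.30e-09 and 1.20e-10), and Ptgr1 fell by 0.96 at day 3 (adjusted p = 1.19e-05).

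Prostanoid receptors changed in both directions. Of 10 listed, 8 were tested, with 3 higher and 4 lower at day 3, beside 28.0% and 28.0% of all genes, and 4 higher and 3 lower at day 5, beside 26.3% and 24.2%. Ptgir, the prostacyclin receptor, measured 24.5, 26.4 and 26.3 CPM in MEFD3min and 41.3, 42.6 and 41.3 CPM in MEFD3plu, and 10.3, 8.26 and 13.0 CPM in MEFD5min against 33.9, 29.5 and 33.4 CPM in MEFD5plu. It rose by 0.70 (SE 0.121, adjusted p = 0.000102) and 1.61 (SE 0.127, adjusted p = 2.29e-08). Its ligand's synthase, Ptgis, was near the floor in the same samples. Ptgfr, the receptor of prostaglandin F2alpha, rose by 0.94 at day 3 (adjusted p = 0.000525) and by 2.03 at day 5 (adjusted p = 2.76e-07).

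The 4 receptors of prostaglandin E2 did not move together. Ptger1 measured 30.4 ± 8.64 CPM in MEFD3min and 27.7 ± 4.19 CPM in MEFD3plu, 13.3 ± 2.73 in MEFD5min and 14.8 ± 1.54 CPM in MEFD5plu, and passed on neither day (-0.13 and 0.15, adjusted p = 0.55 and 0.529). Ptger2 had 0 counts in MEFD0 and MEFD3min and 23, 25 and 36 in MEFD3plu, at least 9.25-fold higher. It had 0, 0 and 2 counts in MEFD5min and 12, 16 and 20 in MEFD5plu, a ratio of 24.2 (95% counting interval 6.34 to 205) that rests on MEFD5min replicate 4. Ptger4 fell on both days (-2.17 and -1.99, adjusted p = 3.00e-05 and 8.38e-06), from 0.851 to 0.187 CPM and from 2.61 to 0.652 CPM. Ptger3 was at most 1.48 CPM in a sample, with values of -1.67 and -1.69 (adjusted p = 0.0296 and 0.0197). The Ptger3 calls were lost without MEFD3min replicate 3 (-0.91), MEFD3plu replicate 1 (-1.56) or MEFD3plu replicate 3 (-1.42) at day 3, and without MEFD5min replicate 1 (-1.33), MEFD5plu replicate 3 (-1.51) or MEFD5plu replicate 4 (-1.73) at day 5. Tbxa2r, the thromboxane receptor, fell by 1.32 at day 3 and rose by 1.22 at day 5 (adjusted p = 0.00373 and 0.0100). Ptgfrn, a membrane protein that binds the receptor of prostaglandin F2alpha, fell on both days (-1.34 and -0.43, adjusted p = 4.68e-08 and 0.00630). Ptgdr and Ptgdr2, the receptors of prostaglandin D2, had at most 1 and 9 counts in a sample and were not tested.

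**Figure D4:**
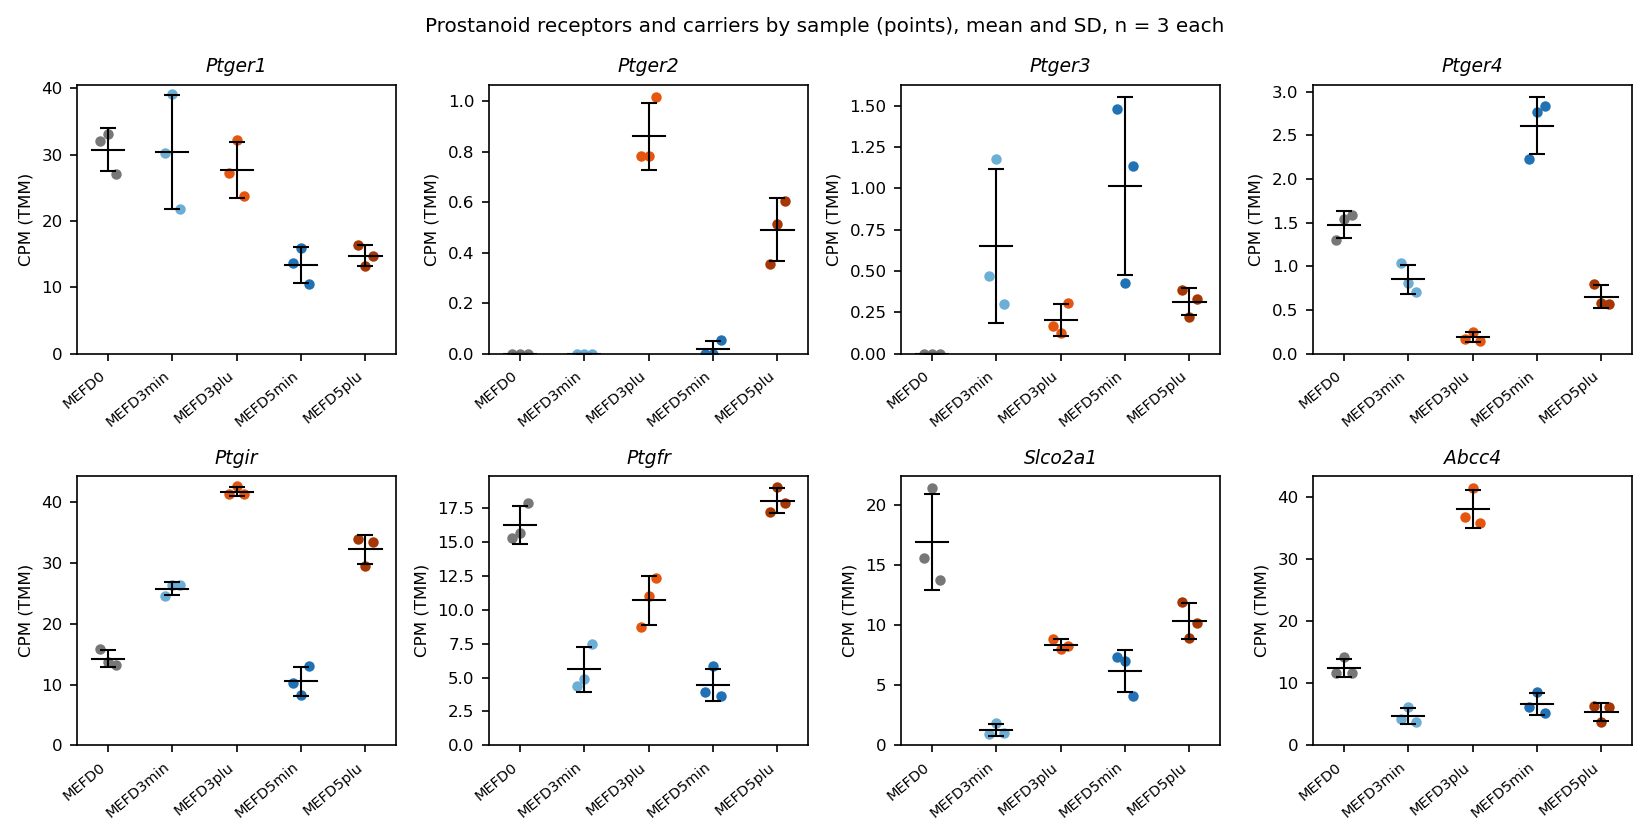
Level (CPM, vertical axes from 0, scales differ) of 6 prostanoid receptors and 2 carriers in each of the 15 samples (points), with the mean and SD of n = 3. Ptger2 had no counts in MEFD0 or MEFD3min, Ptgir was higher in treated than in untreated cells on both days, and Abcc4 stood at 35.9 to 41.5 CPM in the 3 MEFD3plu samples and at 3.71 to 14.2 CPM in the other 12.

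The genes whose log2 CPM followed each member most closely over the 15 samples were picked out of 9586 genes whose log2 CPM averaged 3 or more. For Ptgs2 they were Sap30 (r = 0.979), Acsl4 (r = 0.968) and G2e3 (r = 0.965), and for Pla2g4a they were Pds5b, Mzt1 and Msantd3 (r = 0.983 to 0.986). Acsl4, an acyl-CoA synthetase that prefers arachidonic acid, measured 102 CPM in MEFD3min and 182 CPM in MEFD5min. For Ptges2 they included Cat, the catalase (r = 0.995), and 1110008P14Rik (r = 0.992). For Ptges3 they were Me2, Suv39h2 and Ppat (r = 0.988 to 0.990), for Ptgs1 Slc14a1, Emp2 and Btbd19 (r = 0.963 to 0.965), for Ptges Vegfa, Cx3cl1 and Arrdc3 (r = 0.945 to 0.975), and for Ptgis Dusp6, Zfp9 and Skil (r = 0.883 to 0.886). These r are descriptions over samples that share conditions and libraries.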

How the data were processed

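RNA was sequenced as paired-end reads of 100 bases. Per the submitters' processing notes, the authors aligned reads with TopHat2 2.1.0 to GRCm38 (mm10) and counted them per gene with HTSeq. The deposited files hold raw counts per gene, 1 file per sample. The labels and the study's methods name different TruSeq kits, and the strand setting of the counting is not given in the sources used here.

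Genes were named and placed with GENCODE M21 on GRCm38, which matched 46091 of 46603 identifiers. Counts were fitted in edgeR 4.0.16 (R 4.3.3) with TMM scaling, filterByExpr and the quasi-likelihood test, in 1 fit of all 15 samples and 5 conditions, with Benjamini-Hochberg adjustment within each comparison. A gene was called at an adjusted p under 0.05. Total counts were 24030558 to 37281126 per sample, and intervals and floors cover counting error only. No samples of a condition agreed within sampling noise. Levels per kb used the length of the union of exons. The script was tested on simulated data. Tables and figures were made with Python 3.11.15, pandas 2.3.3, scipy 1.17.1 and matplotlib 3.10.9.

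Named are the 9 genes, the up to 4 genes with the largest absolute change among those that passed in each wider list, all detected prostanoid receptors, and the 3 genes most correlated with each tested gene. One of the correlated genes is not reported here. The genes and lists were chosen with earlier results of these data known.

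The replicate numbers were checked for pairing by the correlation of same-numbered samples' deviations from their condition means. At day 3 it was 0.143, 0.228 and 0.360, and the numbers were taken to pair those samples, from the data and not from the labels. Alternatives were DESeq2 1.42.0, its size factors in edgeR, scaling by library totals alone, no filter, at least 10 counts in every sample (12251 genes), only the samples compared, the replicate number as a block, and leaving out each sample. The fit of the day 3 samples with the block, and the counts per list without genes that passed the filter through 1 condition or with library totals alone, were added after the data were seen.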

Additional observations from a re-analysis of the deposited data

Results flagged for a closer look

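Only groups of 3 samples were available, so no sample was tested for standing far from the others. Each result here stands out because the treatment effect on the log2 scale differed between day 3 and day 5 by edgeR's interaction test (adjusted p under 0.05), and each value is the day 3 effect minus the day 5 effect. Among the 9 genes, 5 did so: Ptgs2 at 1.50, Ptges at 1.51, Ptges2 at 0.37, Ptges3 at 0.37 and Ptgs1 at -0.50. The fitted values had the same sign on both days for Ptges2 and Ptgs1 and opposite signs for the other 3 genes, of which none passed on both days.

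Of all genes tested, 22.6% were called above 0 and 25.8% below. Also looked at were 25 other pathway genes, the up to 4 that passed with the largest change in each list at day 3 or day 5. Of these 25, 17 differed between the days, and as they were picked by size of effect this count does not describe the lists. Over all 43 tested genes of the wider lists, 6 were called above 0 and 18 below. Called genes outside the 25 are not given here, even where their effects are named elsewhere in the text. In arachidonate release the values were 1.41 for Pla2g12a, 0.75 for Pla2g6, 1.48 for Dagla, -1.64 for Pla2g4c and -4.89 for Pla2g2e. Among other terminal synthases they were -1.94 for Hpgds and -1.21 for Akr1b8. In breakdown and transport they were 3.30 for Abcc4, 1.92 for Slco2a1, -0.96 for Ptgr1 and -0.44 for Ptgr2. Among receptors they were -1.09 for Ptgfr and -0.91 for Ptgfrn. Of all 8 tested receptors, 4 were called below 0. Ptgir and Tbxa2r, whose effects on each day are given above, are not among the 25 genes. In other arachidonate branches they were 1.82 for Ephx2, -3.63 for Alox5ap, -3.04 for Ltc4s and -3.03 for Cyp2j9. The values of Pla2g2e and Ltc4s rest on groups with 0 to 3 counts and depend on the prior count of the fit, and the calls of Pla2g2e, Pla2g4c, Hpgds and Ltc4s were lost under several alternatives. The value of Alox5ap rests on 6 counts in MEFD3plu.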

How the results depend on the processing

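Over the alternatives, 661 of 675 values of the 7 tested genes kept their direction and their side of the threshold, 9 lost a call, 5 gained one and 0 reversed. Those that bear on a statement are given beside it. The count of genes whose treatment effect differed between the days was 5, and 3 without the filter on low counts, and the cause was not tested. Leaving out 1 sample gave 4 to 4 called genes of the 7 at day 3, 4 to 5 at day 5 and 4 to 6 for the difference between the days. It gave 5 to 5 from MEFD0 to MEFD3min, 4 to 5 from MEFD3min to MEFD5min, 4 to 5 from MEFD0 to MEFD5min and 5 to 5 from MEFD3plu to MEFD5plu. Over all genes, in the same order, the calls numbered 8157 to 9283, 6818 to 7692, 7032 to 8498, 8860 to 9692, 5937 to 7286, 6226 to 7119 and 9146 to 9950. In addition to those already named, Pla2g4a gained a difference between the days without MEFD3min replicate 3 (-0.35, adjusted p = 0.0385 by edgeR), Ptgis gained a call from MEFD3min to MEFD5min without MEFD3min replicate 1 (2.06, adjusted p = 0.0286 by edgeR), and Ptges2 gained one from MEFD0 to MEFD3min with libraries scaled by their totals alone (-0.25, adjusted p = 0.0148 by edgeR). That scaling moved the median of all genes at day 5 from 0.010 to -0.15 and for the difference between the days from -0.033 to 0.15.

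With the replicate block over all 15 samples, the called genes numbered 4 at day 3, 5 at day 5 and 5 for the difference between the days. They numbered 5 from MEFD0 to MEFD3min, 4 from MEFD3min to MEFD5min, 5 from MEFD0 to MEFD5min and 5 from MEFD3plu to MEFD5plu. The order of conditions held 12 calls. Over all genes, in the same order of comparisons, the calls numbered 9452, 8607, 8305, 10010, 7420, 7970 and 10415. Without the block they numbered 8967, 8080, 7754, 9602, 6845, 7421 and 10071. In the block fit of the day 3 samples the called genes numbered 5, beside 9463 over all genes. The one gained was Ptgs2, and that fit changed no other call of these genes. Outside day 3 the same-numbered samples' correlations ran from -0.103 to 0.180, not all over 0.1 in any comparison, so there the samples share only a number.

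Depth limits Ptgis, Ptgds and Hpgd, which were at or near the floor of 3 counts. With the longest transcript in place of the exon union, 102 of 105 orders of genes by level per kb were kept, the exceptions being Pla2g4a and Ptgs2 in MEFD0, MEFD3plu and MEFD5plu. Of 1109 values of the other named genes, 1023 kept their call, 85 lost one and 1 gained one.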

Other observations

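Genes of the other routes of arachidonic acid, the epoxygenase and leukotriene routes, also changed with treatment. Of 10 tested genes of these routes, 4 rose and 5 fell at day 3, beside 28.0% and 28.0% of all genes, and 6 rose and 0 fell at day 5, beside 26.3% and 24.2%. With libraries scaled by their totals alone, which moved the share of higher genes among all day 5 calls from 52.1% to 37.0%, 6 rose and 1 fell at day 5. At an unadjusted p under 0.05 the number that fell at day 5 was also 0, by edgeR and by DESeq2. Ephx2, the soluble epoxide hydrolase, measured 1.94, 2.05 and 2.32 CPM in MEFD3min and 232, 228 and 251 CPM in MEFD3plu, and 2.76, 3.08 and 3.43 CPM in MEFD5min against 90.4, 103 and 104 CPM in MEFD5plu. It rose by 6.82 at day 3 (SE 0.136) and 5.00 at day 5 (SE 0.126), with adjusted p = 5.33e-16 and 1.20e-14 by edgeR. Ephx1, the microsomal epoxide hydrolase, rose by 1.34 and 1.48.

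Cyp2j6 and Cyp2j9, epoxygenases of the Cyp2j family, fell at day 3 (-1.20 and -1.42) and rose at day 5 (0.73 and 1.61). In the leukotriene route, Ltc4s, the leukotriene C4 synthase, had 3 counts in MEFD3min and 70 in MEFD3plu, a ratio of 23.5 (95% counting interval 7.71 to 117), and 2 in MEFD5min and 407 in MEFD5plu, a ratio of 205 (95% counting interval 56.4 to 1698). Alox5ap, the activating protein of 5-lipoxygenase, fell by 2.84 at day 3 and had a value of 0.79 at day 5 (adjusted p = 0.188 by edgeR). It had 46 counts in MEFD3min and 6 in MEFD3plu, 5 of them in 1 sample, so the day 3 value lies near the floor. Lta4h, the leukotriene A4 hydrolase, fell by 0.50 at day 3, and Cyp4f16 by 1.13, and neither passed at day 5 (-0.06 and -0.0015, adjusted p = 0.567 and 0.992 by edgeR).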
